A study of Mus musculus with 8 samples.

Results

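Amino acid transporter genes were described here in sorted cells, named beta cells in the labels, of the NOD mouse, a model of spontaneous autoimmune diabetes. They were taken as the gene rows whose symbol belongs to the solute carrier families Slc1, Slc3, Slc6, Slc7, Slc36, Slc38 and Slc43, and 1 further matching row was left out by the rule of choice, which gave 58 of the 23366 genes in the deposited table. The labels name the 2 groups the Top and the Bottom (Btm) subpopulation of primary pancreatic beta cells. Both came from NOD mice aged 8 to 10 weeks, and no treatment or engineered allele is named for either. Each group had 4 libraries of about 1000 cells, 2 in batch 1 (top 1, top 2, bottom 1 and bottom 2) and 2 in batch 2. The marker or gate that separates Top from Bottom is not given in the labels, and they do not say whether different animals gave the libraries, so the spread behind each p-value may be partly technical.

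Amino acids enter cells through these carriers, which differ in the substrates they take and in the ions they move with them. Slc7 light chains work as exchangers and most of them need an Slc3 heavy chain to reach the cell surface, while the Slc38, Slc6 and Slc36 carriers use sodium or proton gradients to concentrate their substrates. In islets, uptake of arginine depolarises beta cells and favours insulin release, glutamine and leucine feed or regulate glutamate metabolism, and taurine, GABA and glycine act as local signals.

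Total estimated counts ran from 6657639 to 11262368 per library. The 10 beta cell marker genes summed to between 343569 and 505088 CPM (counts relative to library size, scaled by TMM, a method that adjusts for composition) in top libraries and to between 38468 and 80860 in bottom libraries. Mafa, a beta cell transcription factor, was listed at 0 in all 8. The 5 delta cell markers ranged from 2653 to 5299 CPM in top and from 33540 to 57859 in bottom. The 9 alpha cell markers summed to 65260 to 138198 CPM in top and 29109 to 142176 in bottom. The 3 PP and epsilon cell markers summed to 1196 to 2356 and 11342 to 91991 CPM. In bottom 1 and bottom 2 their sum (77104.5 and 91991 CPM) exceeded the beta cell sum (38468 and 80860). In bottom 3 and bottom 4 it did not. Values are not per length, so these sums are not shares of cells. The sum of 13 intestinal epithelium markers set bottom 1 and bottom 2 apart, at 31587 and 7386 CPM, against 44.5 in bottom 3, 21.5 in bottom 4 and 63.7 to 1957 in top. In bulk RNA such as this, fewer cells of a type and less RNA per cell cannot be told apart.

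No transporter gene passed the test between the populations. Of the 58 genes, 29 had enough counts to be tested, and 0 of these 29 were called at an adjusted p under 0.05 (edgeR quasi-likelihood test with the batch as a covariate, adjusted over all 11721 genes tested), where 0.444% of all tested genes were called. At an unadjusted p under 0.05 there were 2, Slc38a4 and Slc6a8. These were also the 2 tested transporter genes whose libraries did not overlap between the populations, a state found in 7.22% of all tested genes. The share of all genes at an unadjusted p under 0.05 is not given, so such counts, here and below, only describe the genes. DESeq2 called both (5.03% of genes called), limma-trend called Slc38a4 (1.17%), and edgeR without the low-count filter called both and Slc3a1 (1.17%). The 29 genes had a median log2 fold change of bottom over top of -0.09, beside 0.00 over all genes tested, with 13 positive and 16 negative. All 58 genes together held 1589 ± 99.4 CPM in top and 1633 ± 312 CPM in bottom (SD, n = 4).

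**Figure D1:**
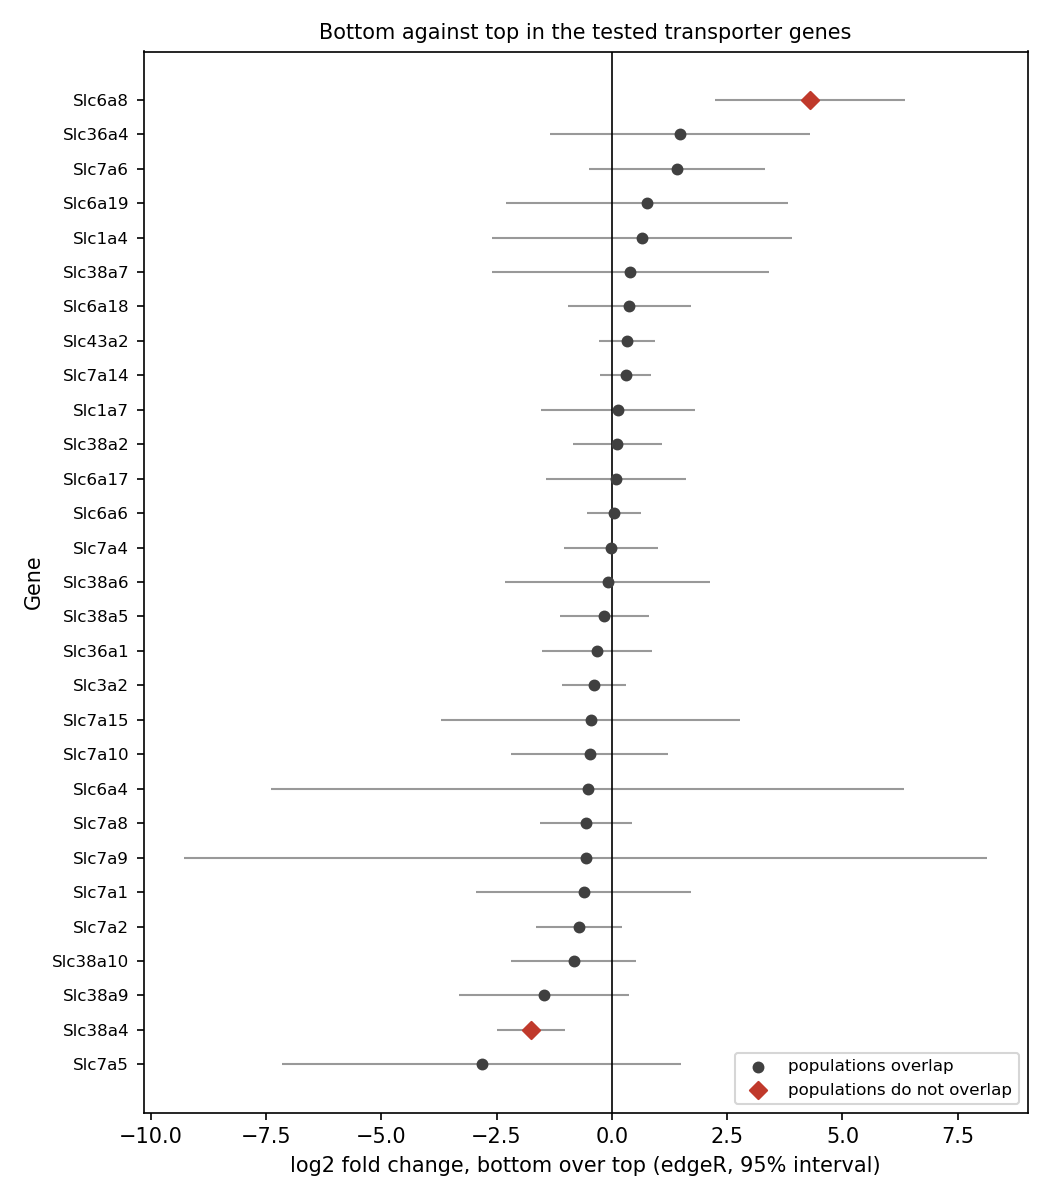
Log2 fold change of bottom over top for the 29 tested transporter genes, with 95% intervals from the edgeR fit. Red diamonds mark Slc6a8 and Slc38a4, whose 4 libraries of each population did not overlap, and the intervals of the other 27 genes span 0.

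Among the system A and system N carriers of the Slc38 family, which take up small neutral amino acids and glutamine with sodium, Slc38a4 had the clearest difference. Slc38a4 encodes a system A carrier abundant in liver. It stood at 152, 149, 172 and 224 CPM in top 1 to top 4 and at 25.1, 59.9, 54.9 and 68.0 CPM in bottom 1 to bottom 4. Every bottom library lay below every top library, with a 3.35-fold higher mean in top. Its log2 fold change was -1.76 (SE 0.33, 95% interval -2.50 to -1.01, adjusted p = 0.0680 by edgeR), with -1.84 in batch 1 and -1.68 in batch 2 fitted alone. The adjusted p was 0.000153 in DESeq2 and 0.0250 in limma-trend. The beta cell marker sum given above, held mostly by Ins1 and Ins2, moved with it. Of the 9 tested markers of that list, 4 were called lower by edgeR (0.444% of all genes called). The others were not. Slc2a2, Ucn3 and Iapp lay just over the cut (log2 changes -3.20, -4.51 and -1.08, adjusted p = 0.0503, 0.0589 and 0.0702 by edgeR). Further from it were Nkx6-1 (log2 change -1.74, SE 1.34, adjusted p = 0.755 by edgeR) and Pdx1 (log2 change -0.30, SE 0.86, adjusted p = 0.950 by edgeR). These last genes were low, with top means of 7.23 and 4.84 CPM. The part of beta cell transcripts in the Slc38a4 difference was not tested.

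Slc38a2, the system A carrier that cells raise when amino acids run short, stood at 139, 97.4, 345 and 87.3 CPM in top and at 101, 196, 244 and 164 CPM in bottom. The populations overlapped, top 3 was the highest library, and the log2 fold change was 0.12 (SE 0.43, adjusted p = 0.959 by edgeR). Slc38a5, a system N glutamine carrier known from alpha cells that proliferate when amino acids are high, stood at 91.8, 65.8, 82.5 and 58.6 CPM in top and at 54.4, 152, 49.8 and 35.6 CPM in bottom. Bottom 2 stood above all other libraries and the other bottom libraries below all of top (log2 change -0.17, SE 0.43, adjusted p = 0.943 by edgeR). The sum of 9 alpha cell markers was also highest in bottom 2, at 142176 CPM against 29109 to 51344 in the other bottom libraries and 65260 to 138198 in top. So was the sum of 13 acinar cell markers, at 2124 against 330 to 509 CPM in the other bottom libraries. The delta cell sum (57859 CPM) and the PP and epsilon cell sum (91991 CPM) were highest in bottom 2 as well. Top 3, with the alpha cell sum of 138198 CPM, had 82.5 CPM of Slc38a5. The part of any of these cells in the Slc38a5 value was not tested. Without bottom 2 the bottom mean of Slc38a5 was 46.6 instead of 73.0 CPM.

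Slc38a1, the remaining system A carrier outside Slc38a2 and Slc38a4, did not pass the count filter, with 11 counts in all top libraries and 62 of its 67 bottom counts in bottom 3. Slc38a3, a system N carrier, had 0 counts in all libraries. Slc38a7, a lysosomal glutamine exporter, averaged 3.68 CPM in top and 5.13 in bottom, or 2.54 in bottom without bottom 2 (adjusted p = 0.958 by edgeR). Slc38a6 ranged from 3.14 to 23.2 CPM in top and from 1.03 to 15.5 in bottom (adjusted p = 0.987 by edgeR), and Slc38a8 and Slc38a11 had 7 and 0 counts in top and 7 and 22 in bottom.

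**Figure D2:**
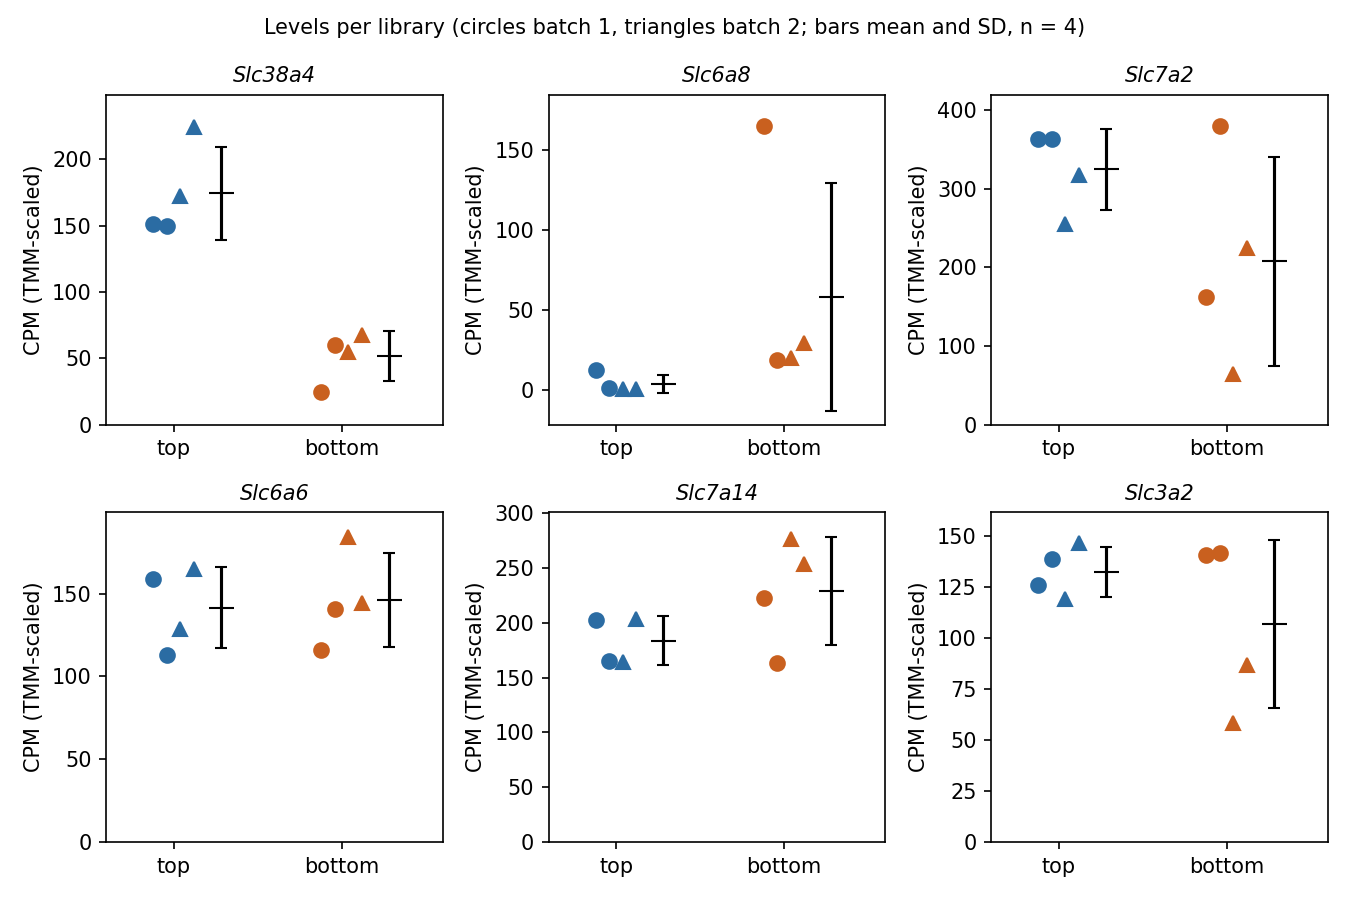
TMM-scaled CPM of 6 transporter genes in each library, with circles for batch 1, triangles for batch 2 and bars for the mean and SD of 4 libraries. Slc38a4 lies at 149 to 224 CPM in top and 25.1 to 68.0 in bottom, Slc6a8 is separated in the other direction with bottom 1 far above the rest, and the other 4 genes overlap.

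Cationic amino acid carriers of the Slc7 family were among the transporter genes with the most reads. Slc7a2, which carries arginine, lysine and ornithine, had 18041 counts over all libraries, the most of the 58 genes. It stood at 363, 363, 255 and 317 CPM in top and at 162, 379, 64.1 and 224 CPM in bottom. Bottom 1, bottom 3 and bottom 4 lay below all of top, and bottom 2 lay above all of it. The log2 fold change was -0.70 (SE 0.42, 95% interval -1.64 to 0.23, adjusted p = 0.645 by edgeR). Slc7a14, a lysosomal relative of the cationic carriers, stood at 203, 165, 164 and 203 CPM in top and at 223, 163, 277 and 253 CPM in bottom. All bottom libraries except bottom 2 exceeded all of top (log2 change 0.30, SE 0.24, 95% interval -0.25 to 0.85, adjusted p = 0.776 by edgeR).

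Slc7a4, a relative whose substrate is unclear, stood at 26.3, 30.3, 39.3 and 20.6 CPM in top and at 36.5, 44.96, 21.7 and 18.9 CPM in bottom, a range that held all of top (log2 change -0.02, SE 0.46, adjusted p = 0.994 by edgeR), and its sign turned under other scalings. Slc7a1, the general arginine carrier, ranged from 7.79 to 29.4 CPM in top and from 0.219 in bottom 1 to 28.4 in bottom 4 (adjusted p = 0.908 by edgeR). Slc7a3, another arginine carrier, was not tested, with 40 counts in top 2, 210 in bottom 2, 6 in bottom 4 and 0 in the other libraries.

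The heavy chain Slc3a2 (4F2hc, CD98), which brings several light chains to the surface, stood at 126, 139, 119 and 147 CPM in top and at 141, 142, 58.1 and 86.9 CPM in bottom. The bottom libraries of batch 1 lay within the top range and those of batch 2 below it (log2 change -0.39, SE 0.31, adjusted p = 0.768 by edgeR). Its light chain partner Slc7a8 (LAT2), an exchanger of neutral amino acids, had the same layout, at 57.1, 89.9, 66.8 and 44.6 CPM in top and 89.3, 93.8, 21.9 and 19.2 CPM in bottom. The bottom libraries of batch 2 were below all of top for Slc7a8 and those of batch 1 were not (log2 change -0.56, SE 0.45, adjusted p = 0.770 by edgeR). The interaction of batch and population, which measures how the log2 fold change of batch 2 differs from that of batch 1, was -1.75 for Slc7a8 (SE 0.68, unadjusted p = 0.0300, adjusted p = 0.604 by edgeR).

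Slc7a5 (LAT1), which exchanges large neutral amino acids such as leucine, stood at 9.64, 5.40, 14.2 and 6.03 CPM in top and at 0, 0.0935, 8.22 and 14.7 CPM in bottom. It was nearly absent from the bottom libraries of batch 1 and within the top range or above it in batch 2. Its log2 fold change of -2.82 therefore came with an SE of 1.93 (adjusted p = 0.710 by edgeR), and the interaction of batch and population was 7.07 (SE 1.98, unadjusted p = 0.00638, adjusted p = 0.499 by edgeR). The log2 fold change was -0.61 with no batch covariate, -1.26 without bottom 1, -1.31 without bottom 2, -4.66 without top 3 and -4.74 without top 4. Slc7a6 (y+LAT2), which exchanges cationic for neutral amino acids, stood at 10.1, 2.89, 5.69 and 21.9 CPM in top and at 10.3, 33.9, 49.8 and 7.69 CPM in bottom. Bottom 2 and bottom 3 exceeded top and the other bottom libraries did not (log2 change 1.41, SE 0.85, adjusted p = 0.653 by edgeR). Slc7a10 (Asc-1), a carrier of small neutral amino acids, ranged from 3.71 to 8.06 CPM in top and from 2.95 to 5.33 in bottom (adjusted p = 0.899 by edgeR).

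Slc7a11 (xCT), which imports cystine in exchange for glutamate and so feeds glutathione synthesis, did not pass the count filter. It had 0, 8, 4 and 0 counts in top and 30, 40, 3 and 331 in bottom. Most of its bottom counts came from bottom 4, and the bottom mean of 9.50 CPM was 2.44 without it. Bottom 4 also had the highest sum of 10 stellate cell and fibroblast markers, at 1344 CPM against 3.39, 235 and 318 in bottom 1 to bottom 3 and 0.251 to 16.2 in top. The part of those cells in the Slc7a11 value was not tested.

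The Slc43 family holds sodium-independent carriers of large neutral amino acids, and Slc43a2 (LAT4) was its main gene here. It stood at 103, 93.4, 82.5 and 88.0 CPM in top and at 134, 171, 79.8 and 93.0 CPM in bottom. The bottom libraries of batch 1 exceeded top and those of batch 2 overlapped it (log2 change 0.33, SE 0.27, 95% interval -0.29 to 0.94, adjusted p = 0.785 by edgeR). Slc43a3, a carrier of purine bases, was not tested, with 2, 1, 2 and 1 counts in top and 0, 49, 54 and 604 in bottom. As for Slc7a11, bottom 4 stood out, and the bottom mean of 16.6 CPM was 3.42 without it. The 9 endothelial markers summed to 306 CPM in bottom 4, to 9.94, 25.1 and 40.9 in bottom 1 to bottom 3 and to at most 8.26 in top, and their part was not tested. Slc43a1 (LAT3) had 2 counts in top and 19 in bottom, all in bottom 2.

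Carriers of lysosomes and endosomes showed no called difference. Slc38a9, the lysosomal arginine sensor that signals to mTORC1, stood at 8.49, 6.03, 23.9 and 20.8 CPM in top and at 5.13, 2.52, 1.69 and 9.36 CPM in bottom. Within each batch both top libraries exceeded both bottom libraries, while across batches the populations overlapped. Its log2 fold change was -1.47 (SE 0.82, 95% interval -3.31 to 0.37, adjusted p = 0.619 by edgeR). Slc38a10, a related gene with a less defined role, stood at 30.2, 25.9, 12.7 and 24.3 CPM in top and at 6.66, 13.5, 14.5 and 18.2 CPM in bottom (log2 change -0.82, SE 0.60, adjusted p = 0.730 by edgeR). Top 3 alone lay among the bottom libraries.

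Slc36a1, a proton-coupled carrier of small amino acids found on lysosomes, ranged from 16.8 to 39.3 CPM in top and from 14.5 to 30.8 in bottom (adjusted p = 0.904 by edgeR). Slc36a4, its relative with high affinity for proline and tryptophan, stood at 0.144, 2.13, 7.54 and 16.8 CPM in top and at 7.76, 14.9, 5.06 and 15.4 CPM in bottom. In batch 1 both bottom libraries were higher and in batch 2 they overlapped top (log2 change 1.48, SE 1.26, adjusted p = 0.789 by edgeR). Slc36a2 and Slc36a3 had 0 counts in top and 30 and 11 counts in bottom, of which 24 of Slc36a2 were in bottom 2 and all of Slc36a3 in bottom 1.

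**Figure D3:**
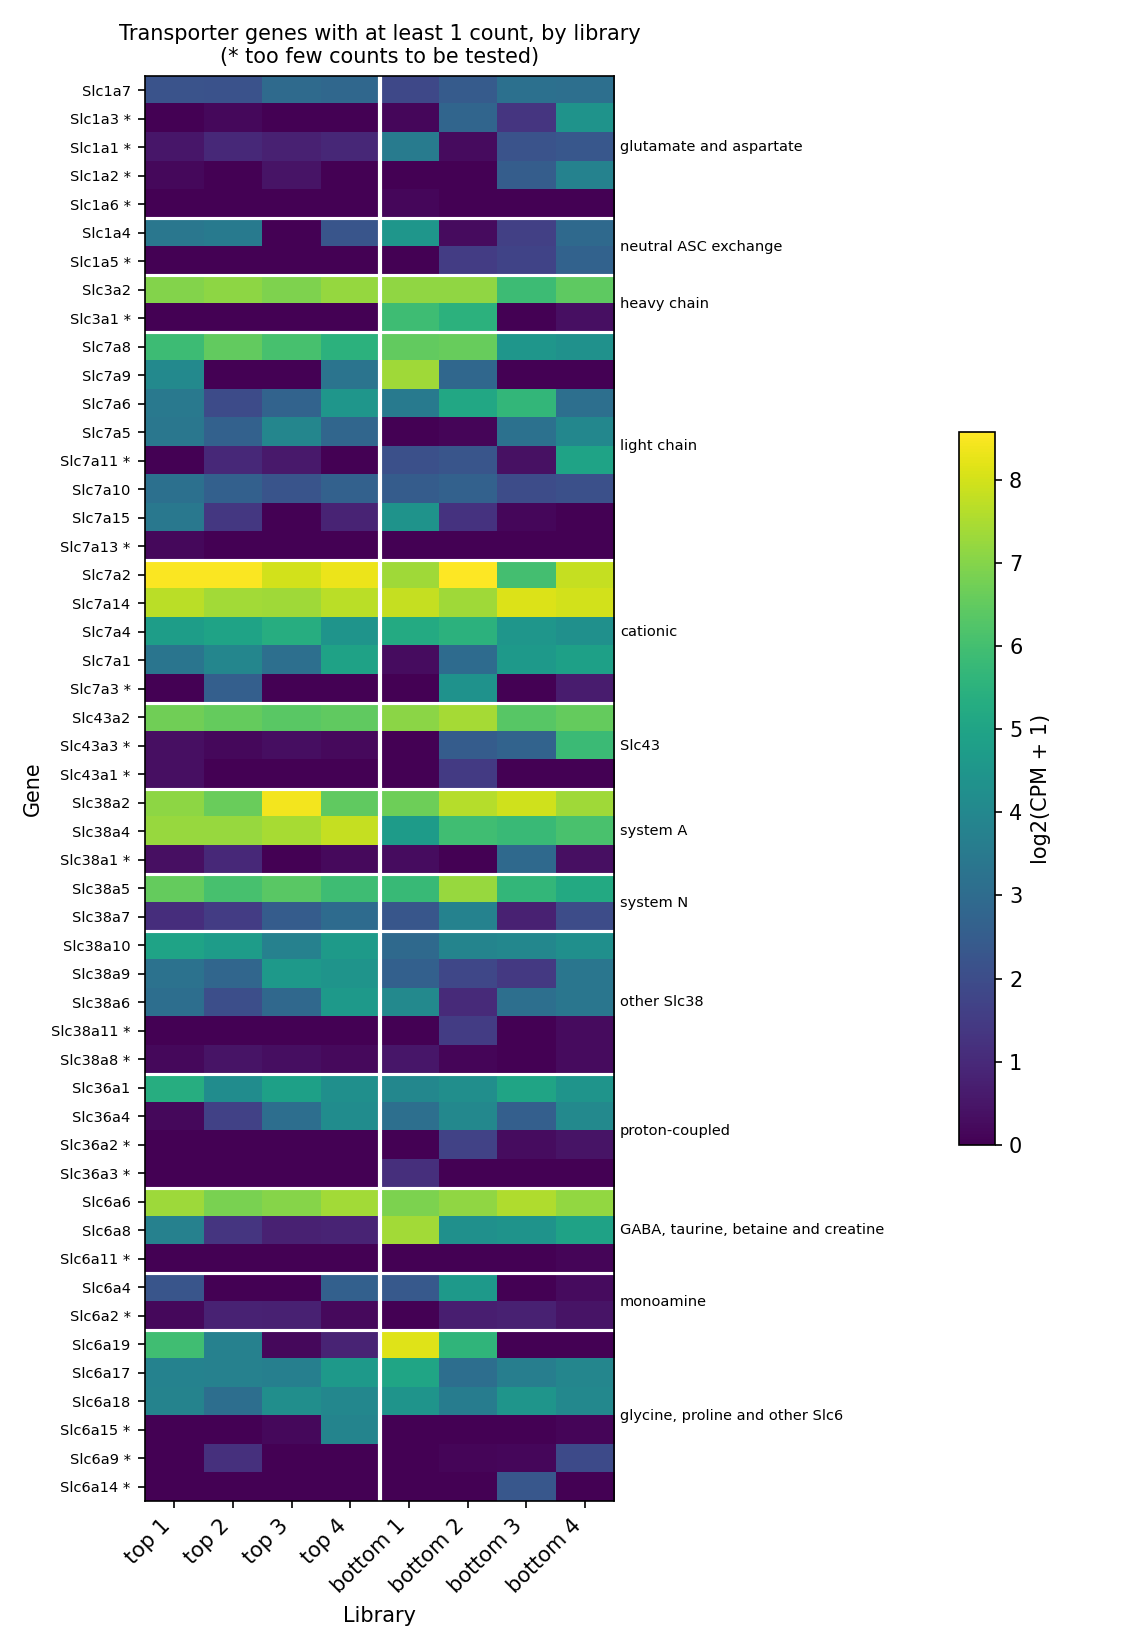
Level of the 50 transporter genes with at least 1 count in each of the 8 libraries, as log2(CPM + 1), grouped by substrate or role, with an asterisk on genes not tested. Colours compare libraries within a row, not genes, since values are not per length. The rows of Slc38a4 and Slc6a8 change at the line between top and bottom, and several untested genes are bright in 1 bottom library alone.

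In the Slc6 family, whose carriers move substrates with sodium and chloride, Slc6a8 had the highest fold difference of the 29 tested carriers and did not pass the test. Slc6a8 encodes the creatine carrier, so it supplies the phosphocreatine energy buffer rather than amino acids for protein. It stood at 12.7, 1.51, 0.742 and 0.794 CPM in top and at 165, 18.8, 20.3 and 29.6 CPM in bottom. Every bottom library lay above every top library, bottom 1 by far the highest, and top 1 was well above the rest of top. The log2 fold change was 4.29 (SE 0.91, 95% interval 2.24 to 6.35, adjusted p = 0.0980 by edgeR), with 3.66 in batch 1 and 5.01 in batch 2 fitted alone. DESeq2 gave an adjusted p of 6.63e-06 and limma-trend 0.0641. Without bottom 1 the bottom mean was 22.9 instead of 58.4 CPM, and without top 1 the top mean was 1.01 instead of 3.93 CPM, with log2 fold changes of 3.76 and 5.36. The delta cell marker sum given above, and that of 3 PP and epsilon cell markers, at 1196 to 2356 CPM in top and 11342 to 91991 in bottom, were likewise higher in every bottom library. So were the sums of 10 duct cell markers (561 to 887 and 1178 to 2072 CPM) and of 9 endothelial markers (at most 8.26 and at least 9.94 CPM). Bottom 1 and top 1 were the libraries with the highest intestinal marker sum of their population. In bottom 3 and bottom 4, where that sum was 44.5 and 21.5 CPM, Slc6a8 was at 20.3 and 29.6 CPM. The part of any of these cells in the Slc6a8 difference was not tested.

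Slc6a6, the taurine carrier, gave an interval placed closely around 0. It stood at 159, 113, 129 and 165 CPM in top and at 116, 141, 185 and 144 CPM in bottom, and the populations overlapped, with bottom 3 above all of top and top 2 below all of bottom. Its log2 fold change was 0.04 (SE 0.26, 95% interval -0.55 to 0.62, adjusted p = 0.978 by edgeR). With Slc43a2 and Slc7a14 it was among the 3 tested transporter genes whose interval stayed within a 2-fold change in either direction. The GABA carrier Slc6a13 and the betaine carrier Slc6a12 had 0 counts in all libraries, and Slc6a11, a further GABA carrier, had 1 count in bottom 4.

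Slc6a4, the serotonin carrier, stood at 3.74, 0, 0 and 5.24 CPM in top and at 4.26, 23.6, 0 and 0.185 CPM in bottom (adjusted p = 0.976 by edgeR). The noradrenaline carrier Slc6a2 had at most 7 counts in any library and the dopamine carrier Slc6a3 none. Slc6a17, a vesicular carrier of neutral amino acids, ranged from 11.99 to 24.0 CPM in top and from 7.57 to 32.2 in bottom (adjusted p = 0.980 by edgeR). Slc6a18, known as a kidney carrier of neutral amino acids, ranged from 7.53 to 17.7 CPM in top and from 11.1 to 21.0 in bottom (adjusted p = 0.899 by edgeR). The glycine carrier Slc6a5 and the proline carrier Slc6a7 had 0 counts. Slc6a15, a carrier of branched-chain amino acids and proline, had 85 of its 87 counts in top 4, and Slc6a14 had all of its 38 counts in bottom 3. The glycine carrier Slc6a9 had 10 counts, all in top 2, in top and 32 in bottom, of which 30 were in bottom 4.

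The apical carriers that absorb amino acids in intestine and kidney were high in bottom 1. Slc6a19 (B0AT1), the main apical importer of neutral amino acids, stood at 60.3, 12.7, 0.124 and 0.794 CPM in top and at 282, 47.7, 0 and 0 CPM in bottom. It was higher in batch 1 than in batch 2 in both populations and highest in bottom 1. Its log2 fold change was 0.76 (SE 1.36, adjusted p = 0.914 by edgeR), and its mean was 15.9 instead of 82.5 CPM in bottom without bottom 1 and 4.53 instead of 18.5 CPM in top without top 1. Slc7a9 (b0,+AT), the light chain that absorbs cystine and basic amino acids, stood at 15.5, 0, 0 and 8.89 CPM in top and at 161, 6.26, 0 and 0 CPM in bottom (adjusted p = 0.979 by edgeR). The bottom mean of Slc7a9 was 2.09 instead of 41.8 CPM without bottom 1. Slc7a15, a further light chain, was likewise highest in top 1 and bottom 1 of its population, with 9.78 CPM in top 1, 19.99 in bottom 1 and at most 1.63 in the other libraries (adjusted p = 0.955 by edgeR).

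Slc3a1 (rBAT), the heavy chain of Slc7a9, did not pass the count filter. It had 0 counts in all top libraries and 535, 472, 0 and 3 counts in bottom, that is 58.4, 44.1, 0 and 0.278 CPM. Against a limit of 3 counts over the 4 top libraries the pooled bottom level was at least 243-fold higher (at least 148-fold without bottom 1), and bottom 1 and bottom 2 held all but 3 of the counts. Without the filter edgeR gave an adjusted p of 0.0136. Exons of Slc3a1 overlap those of Prepl on the other strand in the GENCODE M21 annotation, and the labels do not say that the kit keeps strand. Prepl itself ranged from 98.2 to 158 CPM in top, where Slc3a1 had no count, and from 49.3 to 103 CPM in bottom. Slc38a10, Slc43a2 and Slc7a2 also overlap transcripts of the other strand in that annotation, so reads of the pairs cannot be told apart without strand. The intestinal marker sum of 31587 CPM in bottom 1 and 7386 in bottom 2 stood beside these 3 carriers, and bottom 3 and bottom 4, at 44.5 and 21.5 CPM of that sum, had at most 3 counts of any of them. In top 1, top 2 and top 4 the sum was 1957, 165 and 731 CPM. Slc6a19 stood there at 60.3, 12.7 and 0.794 CPM and Slc7a9 at 15.5, 0 and 8.89 CPM, while Slc3a1 had no count. Of these, Slc7a9 followed the order of the sum in top and Slc6a19 did not. The part of intestinal transcripts in the values of bottom 1 and bottom 2 was not tested.

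**Figure D4:**
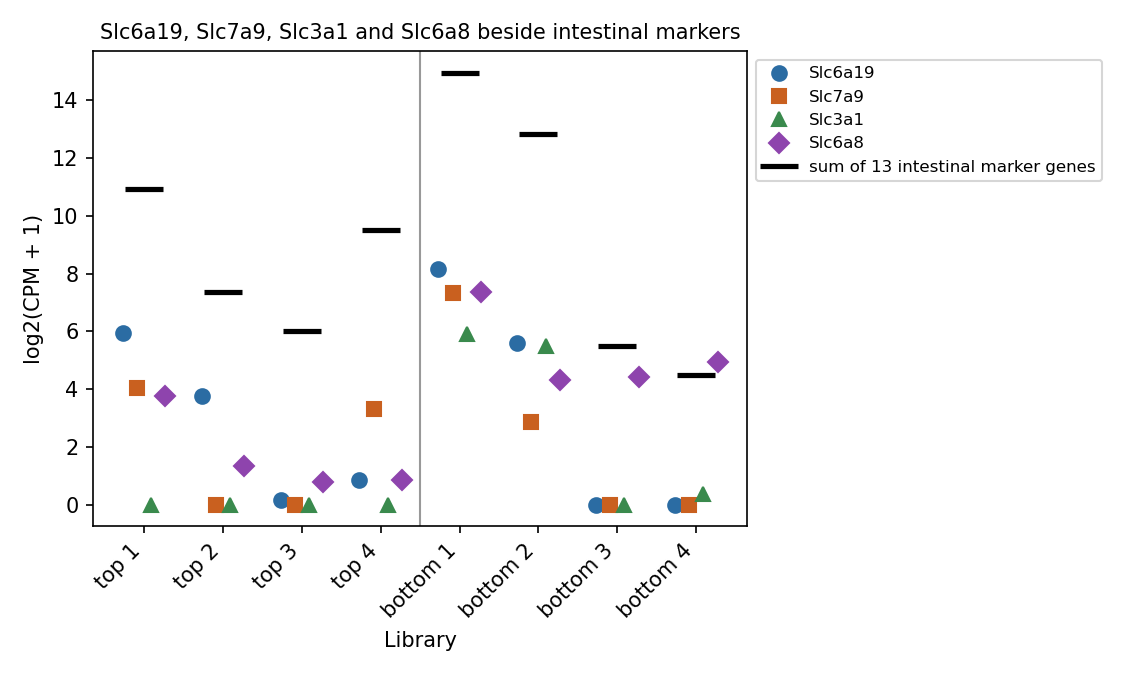
Slc6a19, Slc7a9, Slc3a1 and Slc6a8 in each library as log2(CPM + 1), beside the sum of 13 intestinal epithelium marker genes as black bars. Slc6a19, Slc7a9 and Slc3a1 are high in bottom 1, where the marker sum is 31587 CPM, and at or near 0 in bottom 3 and bottom 4, and Slc6a8 is at 20.3 and 29.6 CPM there.

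Glutamate and aspartate carriers of the Slc1 family were low. Slc1a7, a glutamate carrier known from retina, was the 1 gene of these 5 that could be tested, at 3.52 to 6.80 CPM in top and 2.62 to 8.01 in bottom (adjusted p = 0.976 by edgeR). Slc1a1 had 3 to 8 counts per top library and 100, 2, 34 and 43 in bottom. Slc1a2 had 4 counts in top and 0, 0, 45 and 141 in bottom, and Slc1a3, a glial carrier, had 1 count in top and 1, 64, 14 and 215 in bottom. Slc1a6 had 1 count in all, in bottom 1. For Slc1a2 and Slc1a3, bottom 4 was the highest library, as it was for fibroblast and endothelial marker sums. Their bottom means of 4.45 and 6.87 CPM were 1.58 and 2.52 without it.

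The neutral exchangers Slc1a4 (ASCT1) and Slc1a5 (ASCT2) were also low. Slc1a4, which exchanges alanine, serine and cysteine, stood at 9.64, 10.5, 0 and 3.81 CPM in top and at 21.7, 0.187, 2.11 and 6.67 CPM in bottom (log2 change 0.65, SE 1.45, adjusted p = 0.930 by edgeR). Its sign turned without bottom 1. Slc1a5, a main glutamine carrier of dividing cells, had 0 counts in all top libraries and 0, 20, 22 and 59 in bottom. Against the limit of 3 counts over the top libraries this was at least 24.3-fold higher (at least 13.8-fold without bottom 4), at a level of 5.47 CPM or less in every bottom library.

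The 29 genes that were not tested had no reads, few reads or reads in too few libraries to pass the filter: 8 had no count (Slc7a12 among them), 8 had counts only in bottom, 1 (Slc7a13) only in top, and 12 in both. None of the 29 had populations that failed to overlap. Of the 29 tested genes, 13 had means under 20 CPM in both populations. No difference in response between the batches was called (0 of 29 called by the edgeR interaction test, with 0.0% of all genes called). In that test 4 had an unadjusted p under 0.05, which were Slc7a5, Slc6a19, Slc7a8 and Slc7a9. The share of all genes at that unadjusted level is not given, so whether 4 of 29 is unusual cannot be told.

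Other genes of amino acid handling were read beside the same shares of all genes called, 0.444% by edgeR, 5.03% by DESeq2 and 1.17% by limma-trend. Among 21 other carriers of amino acids and peptides, 0 of 12 tested genes were called, 2 had an unadjusted p under 0.05, and the median log2 fold change was 0.02. DESeq2 called 1 of them higher, the mitochondrial ornithine carrier Slc25a15, and limma-trend 0. Tmem27 (collectrin), a beta cell protein that helps Slc6a18 and Slc6a19 reach the surface in kidney, averaged 1033 CPM over top and 1243 over bottom libraries (log2 change 0.24, SE 0.23, adjusted p = 0.811 by edgeR).

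Of 31 genes of amino acid sensing at mTORC1, 0 of 29 tested were called, and 3 had an unadjusted p under 0.05 (median log2 fold change -0.28). DESeq2 and limma-trend also called 0 of these. Of 30 enzymes of amino acid metabolism, 20 were tested, with a median log2 fold change of -0.20. Among them 1 was called lower, where 0.444% of all tested genes were called. It was the GABA-producing Gad1 (log2 change -6.42, SE 0.80, adjusted p = 0.0139 by edgeR). Gad1 stood at 65.4 to 87.6 CPM in top and 0.109 to 1.87 in bottom, and its adjusted p rose to 0.0612, 0.0711, 0.0560 and 0.0616 without top 1, top 2, top 4 or bottom 4. DESeq2 called 3 of these 20 enzymes lower, Gad1, Glul and Ddc (5.03% of all genes called), and limma-trend called Gad1 (1.17%). Glul, the glutamine synthetase, stood at 87.6, 93.2, 48.6 and 115 CPM in top and at 10.9, 31.9, 16.7 and 23.6 CPM in bottom. All top libraries exceeded all bottom libraries, without a call by edgeR (log2 change -2.05, SE 0.46, adjusted p = 0.111 by edgeR).

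The amino acid response, in which the transcription factor ATF4 raises carriers and enzymes when amino acids are scarce or the endoplasmic reticulum is stressed, was read from 22 genes. Of 21 tested, 0 were called and 3 had an unadjusted p under 0.05, with a median log2 fold change of -0.28. DESeq2 called 2 lower, Asns and Atf5 (5.03% of all genes called), and limma-trend called 0 (1.17%). Asns, the asparagine synthetase and a standard ATF4 target, stood at 62.6, 101, 128 and 88.1 CPM in top and at 16.3, 39.2, 53.5 and 25.5 CPM in bottom, with no overlap and no call by edgeR (log2 change -1.51, SE 0.42, adjusted p = 0.213 by edgeR). Slc7a11, Slc1a4, Slc3a2 and Slc7a5 are known ATF4 targets among the carriers. As given above, none of them was called, and Slc7a11 was not tested.

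The core letters of the element that ATF4 binds with its C/EBP partners, TGATGCAA, were searched on both strands of RefSeq promoters of build GRCm38.p6, from 250 bases before to 50 after each gene start. The table held 40 of the 58 genes with 57 entries, and 2 of the 40, Slc7a11 and Slc1a4, held the letters in 1 entry each. That is 2 of 57 entries, where 0.895% of all 32851 entries held them. The 2 promoters are shown because they held the letters, with the match in capitals. A relation of the letters to the counts was not tested. The Slc7a11 promoter lies at chr3:50443564-50443863 on the minus strand and the Slc1a4 promoter at chr11:20332664-20332963 on the minus strand.
Slc7a11: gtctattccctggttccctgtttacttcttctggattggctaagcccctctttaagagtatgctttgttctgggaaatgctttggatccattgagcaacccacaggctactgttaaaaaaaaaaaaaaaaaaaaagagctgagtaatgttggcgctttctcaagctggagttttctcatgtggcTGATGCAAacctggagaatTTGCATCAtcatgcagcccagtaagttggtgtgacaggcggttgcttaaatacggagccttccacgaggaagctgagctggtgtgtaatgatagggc
Slc1a4: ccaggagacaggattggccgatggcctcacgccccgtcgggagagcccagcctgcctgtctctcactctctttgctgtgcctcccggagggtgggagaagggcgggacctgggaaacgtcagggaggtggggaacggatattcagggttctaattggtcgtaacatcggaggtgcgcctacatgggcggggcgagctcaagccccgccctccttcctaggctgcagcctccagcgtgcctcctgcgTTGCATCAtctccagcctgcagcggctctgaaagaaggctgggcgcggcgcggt
In Slc7a11 the letters occur on both strands, first 66 and then 47 bases before the gene start, as an inverted pair. In Slc1a4 they occur once, on the opposite strand, beginning 4 bases before the start. A match describes the letters in this window and is not a measured binding site.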

How the data were processed

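The authors deposited expected counts, which RSEM estimates per gene by dividing reads among genes they match. The submitters' processing notes name RSEM, edgeR and mm9; the aligner, annotation and versions are not given in the sources used here. cDNA was made with the SMARTer Ultra Low kit and libraries with Nextera XT, per the labels' protocols. The per-library tables and the series table differed by 0. Of the values, 34.8% were not whole, and all were rounded.

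Bottom was compared with top by the quasi-likelihood test of edgeR 4.0.16 in R 4.3.3, with TMM scaling, filterByExpr by population, the batch as a covariate, and Benjamini-Hochberg adjustment over the 11721 genes tested of 23366. The common biological coefficient of variation was 0.806. The SE is the log2 fold change divided by the root of the F statistic, and 95% intervals follow from it. Tests were checked on simulated data. A population with no count was given a limit of 3 counts in all, which covers counting error only.

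Alternatives were RLE or no composition scaling, DESeq2 1.42.0, limma-trend (limma 3.58.1), no filter, no batch term, each batch alone and each library left out. Values in each library are given for genes called, not overlapping, among the 12 with the most reads, or among the 5 largest positive or negative changes; other genes given per library were chosen after their values were seen. The genes and lists were chosen with earlier results of these data known. The duct cell list, given above, and the marker lists not given above had these sums. Duct cell markers held 561 to 887 CPM in top and 1178 to 2072 in bottom. Schwann cell and neuron markers held 21.0 to 47.1 and 6.01 to 37.6 CPM. Leukocyte markers held 0.247 to 1.51 and 0.463 to 3.37 CPM, macrophage and dendritic cell markers 0.953 to 3.39 and 0.437 to 22.4, and T, B and NK cell markers 7.78 to 18.8 and 4.70 to 15.7. Some genes of these lists are not reported here.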

Additional observations from a re-analysis of the deposited data

Results flagged for a closer look

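Within a population of 4 libraries, 7 values stood apart from the other 3, by the test of Dixon at the 95% level. They came from 48 gene and population combinations, of which Slc3a1 and Slc1a5 in top held only 0 and could not be examined. All these genes were chosen from the same values, by level, overlap or size of change. Others, with Slc43a3, Slc7a11 and Slc1a3 among them, were added after their values were seen. No chance rate therefore applies to these flags. Slc6a8 stood at 165 CPM in bottom 1, with 29.6 next, and at 12.7 CPM in top 1, with 1.51 next. Slc6a19 stood at 282 CPM in bottom 1, with 47.7 next. Slc38a5 stood at 152 CPM in bottom 2, with 54.4 next. Slc43a3 and Slc7a11 stood at 56.0 and 30.7 CPM in bottom 4, with 5.69 and 3.74 next. Slc1a3 stood at 0.126 CPM in top 2, which was 1 count, with 0 in the other top libraries.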

How the results depend on the processing

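The count of transporter genes called was 0 in each direction under RLE or no composition scaling, without the batch term, in each batch alone and in all 8 omissions of a library. DESeq2 called 1 higher and 1 lower, limma-trend 0 higher and 1 lower, and edgeR without the low-count filter 2 higher and 1 lower. Over all genes 52 were called, and 589 by DESeq2, 137 by limma-trend, 204 without the filter, 32 without the batch term, 2 in batch 1 alone, and 2 in batch 2 alone. Without top 1 to top 4 there were 12, 8, 28 and 14, and without bottom 1 to bottom 4 there were 60, 33, 23 and 11. The median log2 fold change of -0.09 was 0.23 without composition scaling, where the median of all genes rose to 0.34, and 0.28 without the filter, 0.44 in batch 1 alone and -0.22 to 0.37 over the omissions, the highest without top 4. Slc38a4 kept its sign in every fit (-2.01 to -1.55 over the omissions, adjusted p 0.0541 to 0.205, and 0.000153 to 0.327 over all alternatives), as did Slc6a8 (3.76 to 5.36, adjusted p 0.0608 to 0.305, and 6.63e-06 to 0.420 over all alternatives).

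Of 18 genes named by the rule, 10 changed sign in at least 1 alternative, none of them called, and the cause was not tested. In batch 1 alone the log2 fold change was 0.37 for Slc38a5, 0.068 for Slc3a2, -0.11 for Slc6a6, 0.50 for Slc7a4 and 0.29 for Slc7a8. In batch 2 alone it was -0.24 for Slc36a4, -0.068 for Slc38a2 and 0.19 for Slc7a5. Slc38a5 was at 0.16 without composition scaling and Slc6a19 at -0.66 in DESeq2. Slc7a4 was at 0.030 with RLE, 0.32 without composition scaling, 0.030 in DESeq2, 0.015 in limma-trend and 0.066 without the batch term. Over the omissions the range was -0.35 to 1.501 for Slc1a4, -0.14 to 0.66 for Slc38a2, -0.63 to 0.041 for Slc38a5, -1.09 to 1.76 for Slc6a19, -0.071 to 0.16 for Slc6a6, -4.74 to -1.26 for Slc7a5 and -0.19 to 0.29 for Slc7a4. No paired analysis was possible because the numbers in the library titles are shared by the populations for number 1 only, so the batch was the sole common term.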
